A study of Mus musculus with 4 samples.

Results

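Tuft cells are chemosensory epithelial cells that use the signalling machinery of taste receptor cells, and a population of them lies in the medulla of the thymus. Described here are 7 genes of that machinery, chosen by symbol as *Gnat3*, *Gnb3*, *Gng13*, *Plcb2*, *Itpr3*, *Trpm5* and *Rgs13*, out of 23337 genes in the count table. In taste cells, bitter, sweet and umami receptors activate gustducin, a G protein whose α subunit is encoded by *Gnat3* and whose βγ partners are encoded by *Gnb3* and *Gng13*. The released βγ dimer activates phospholipase C β (*Plcb2*), whose product IP3 opens the calcium release channel encoded by *Itpr3*. The rise in calcium opens the cation channel TRPM5, and RGS proteins such as RGS13 end G protein signals by speeding up GTP hydrolysis.

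Bulk RNA-seq was measured in medullary thymic epithelial cells (mTECs) of C57BL/6 mice aged 4 weeks, sorted as CD45- EPCAM+ UEA-1+ Ly51- cells. WT libraries (n = 2) came from *Foxn1*-Cre-negative littermates or age-matched mice, and libraries labelled *Sirt6*-/- (n = 2) from *Foxn1*-Cre *Sirt6* loxp/loxp mice, bred to lack the deacetylase SIRT6 in thymic epithelium. The *Foxn1* promoter drives Cre in both medullary and cortical thymic epithelium, so the deletion was not directed at tuft cells, and no tuft cells were isolated. How many animals were combined in a library is not given in the sources used here, and p-values measure the spread between these libraries only.

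Library totals ran from 61102704 to 65907745 counts. *Sirt6* itself counted 622 and 755 in WT against 882 and 835 in the libraries labelled *Sirt6*-/-, a log2 fold change of 0.37 ± 0.32 (SE), so it was not lower there. The counts cover the whole gene, and the exons flanked by the loxp sites are not given in the sources used here, so these counts neither support nor contradict the labels. The authors report the inactivation of *Sirt6* from other assays, a western blot of cultured thymic epithelial cells and quantitative PCR of sorted mTECs. The mTEC markers *Epcam* (758 and 771 CPM in WT, 1003 and 1128 CPM in *Sirt6*-/-) and *Aire* (351 and 428, then 560 and 664 CPM) were high in all 4 libraries. CPM here means a count divided by the library total after TMM scaling, per 1e+06 counts.

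The 7 genes lie on 6 chromosomes of GRCm38, the assembly of mm10. *Gnat3* spans chr5:17962549-18019834 on the plus strand, *Gnb3* chr6:124834240-124840275 on the minus strand and *Gng13* chr17:25717171-25719406 on the plus strand. *Plcb2* spans chr2:118707517-118728438 on the minus strand, *Itpr3* chr17:27057304-27122223 on the plus strand, *Trpm5* chr7:143069153-143094642 on the minus strand and *Rgs13* chr1:144138654-144177372 on the minus strand. The longest transcript of each of the 7 shared no 50-base stretch, read in the same direction, with a transcript of another annotated gene. The exons of *Gng13* overlapped those of *Chtf18*, on the other strand, over 51.6% of their length, so reads of these 2 genes cannot be told apart where the counting did not use strand. For *Trpm5* (overlapped by *Tssc4*) and *Itpr3* (overlapped by *Itpr3os*) the overlap with a gene on the other strand covered 3.44% and 2.58% of the exon length.

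RefSeq start sites on GRCm38.p6 gave a promoter window for 6 of the 7 genes, all but *Gnb3*. The 250 bases before the start are given for 5 of them, because the gene that was higher in the libraries labelled *Sirt6*-/- (*Itpr3*) and 4 genes that were lower (*Rgs13*, *Gnat3*, *Trpm5* and *Plcb2*) can be read side by side. Each is written 5′ to 3′ on the strand of its gene, and capitals mark CG dinucleotides (CpG).
*Itpr3*, chr17:27057054-27057303, plus strand: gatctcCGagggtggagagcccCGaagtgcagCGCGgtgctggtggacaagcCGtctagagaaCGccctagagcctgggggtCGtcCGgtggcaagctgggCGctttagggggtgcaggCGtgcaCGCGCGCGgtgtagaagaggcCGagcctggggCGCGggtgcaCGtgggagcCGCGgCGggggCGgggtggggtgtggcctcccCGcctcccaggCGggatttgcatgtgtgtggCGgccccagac
*Rgs13*, chr1:144177373-144177622, minus strand: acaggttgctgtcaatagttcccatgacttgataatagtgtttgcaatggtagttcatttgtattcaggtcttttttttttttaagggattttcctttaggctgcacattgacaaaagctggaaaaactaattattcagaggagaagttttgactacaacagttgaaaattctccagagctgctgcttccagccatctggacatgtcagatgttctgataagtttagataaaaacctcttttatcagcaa
*Gnat3*, chr5:17962320-17962569, plus strand: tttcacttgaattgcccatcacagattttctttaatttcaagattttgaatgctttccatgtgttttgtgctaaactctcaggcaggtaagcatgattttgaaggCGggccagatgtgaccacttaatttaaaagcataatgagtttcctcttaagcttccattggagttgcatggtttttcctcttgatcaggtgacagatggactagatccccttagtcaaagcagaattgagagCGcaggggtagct
*Trpm5*, chr7:143094643-143094892, minus strand: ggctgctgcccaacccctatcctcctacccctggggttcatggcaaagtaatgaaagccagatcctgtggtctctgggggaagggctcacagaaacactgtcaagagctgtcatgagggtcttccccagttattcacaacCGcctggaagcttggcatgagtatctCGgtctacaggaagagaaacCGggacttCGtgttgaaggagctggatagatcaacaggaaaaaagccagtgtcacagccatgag
*Plcb2*, chr2:118728439-118728688, minus strand: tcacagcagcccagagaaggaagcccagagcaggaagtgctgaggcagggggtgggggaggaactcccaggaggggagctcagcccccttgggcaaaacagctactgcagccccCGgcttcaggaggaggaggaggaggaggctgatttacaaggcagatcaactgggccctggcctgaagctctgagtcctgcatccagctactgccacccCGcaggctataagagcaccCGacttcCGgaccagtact

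The *Itpr3* window held 25 CpG and was 72% G and C. At least that many CpG were found in 10.7% of 32851 promoter windows of the same length, whose median was 6 CpG and 52.4% G and C. The windows of 4 of the 5 lower genes held 0 CpG (*Rgs13*), 2 (*Gnat3*), 4 (*Trpm5*) and 4 (*Plcb2*), and 49.6% of all windows held 5 or fewer. *Gnb3*, also lower, had no window. *Gng13* had 2 start sites, of which one held 2 CpG and the other 25. The letters ATGCAAAT, the octamer bound by POU factors, were searched on both strands and occurred in 1.60% of all windows. Among these genes they matched on the reverse strand of *Itpr3*, at 27 to 20 bases before the start. GAGGAAGT, a box of the kind bound by SPIB and PU.1, occurred in 2.44% of windows and in none of the windows of these genes. These matches describe the letters only.

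Of the 6 genes that passed the low-count filter, 5 were lower and 1 was higher in the libraries labelled *Sirt6*-/- at an unadjusted p of 0.05 by edgeR's quasi-likelihood test. Across all 18547 genes tested, 3.32% were lower, 5.27% higher and 8.58% one or the other by the same rule, and 50.4% had a log2 fold change below 0. With Benjamini-Hochberg adjustment over all genes in edgeR's quasi-likelihood test, 0 of the 6 passed, their adjusted p-values ran from 0.366 to 0.548, and across all genes 0% were lower and 0.00539% higher. By DESeq2, 3 of the 6 passed at an adjusted p of 0.05 (*Gnat3*, *Gnb3* and *Rgs13*), against 0.822% of genes lower and 1.06% higher. All 6 passed unadjusted by DESeq2 (5 lower and 1 higher), against 4.38% of genes lower and 5.8% higher. On simulated counts, 130 unchanged genes passed at an adjusted p of 0.05 by DESeq2, which ran 20939 genes, and 6 by edgeR, which ran 18425. The spread of the simulated counts was the one edgeR estimated, so they cannot rank the 2 tools. The WT and *Sirt6*-/- libraries did not overlap for any of the 6, but 20.3% of all genes tested were lower and 21.6% higher without overlap. The median log2 fold change was -1.20 over the 6 genes and -0.0047 over all genes tested. In these bulk libraries, fewer tuft cells and less RNA per tuft cell cannot be told apart.

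**Figure D1:**
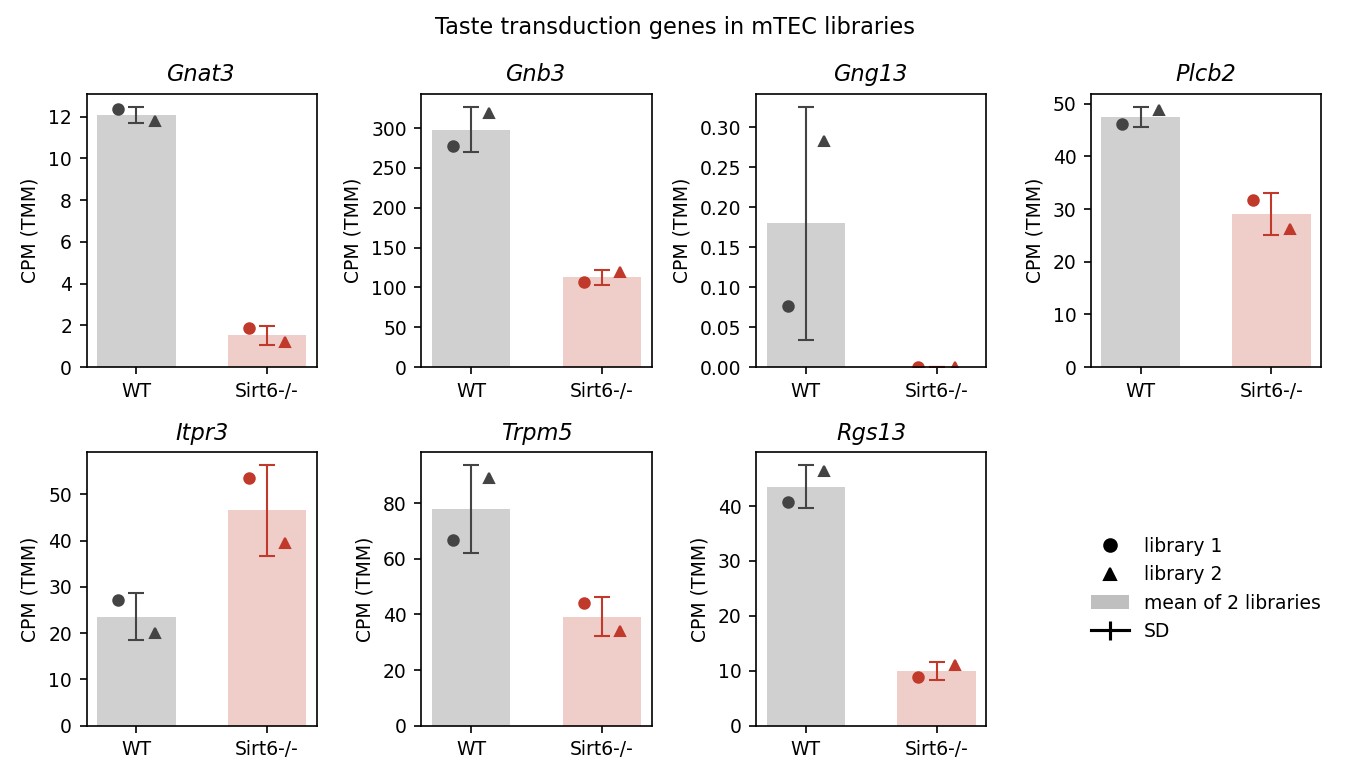
CPM of each of the 7 genes on a linear axis, with bars for the mean of 2 libraries, error bars for the SD and a point for each library. *Gnat3*, *Gnb3*, *Plcb2*, *Trpm5* and *Rgs13* sit lower in both *Sirt6*-/- libraries than in both WT libraries, *Itpr3* sits higher, and *Gng13* stays under 0.3 CPM.

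The α subunit of gustducin showed the largest difference among the 6 tested genes. *Gnat3* reached 809 counts in WT 1 and 750 in WT 2, against 112 in *Sirt6*-/- 1 and 76 in *Sirt6*-/- 2. Both libraries labelled *Sirt6*-/- lay far below both WT libraries, and the gap was wider than the spread within either group. Its mean level was 12.1 ± 0.406 CPM in WT and 1.52 ± 0.474 CPM in *Sirt6*-/- (SD, n = 2 each). This was 7.93-fold lower, a log2 fold change of -2.99 ± 0.45 (SE; 95% interval -4.13 to -1.85) with an unadjusted p of 0.000886 by edgeR. The adjusted p was 0.540 by edgeR's quasi-likelihood test and 1.62e-05 by DESeq2, both with Benjamini-Hochberg adjustment, and ran from 1.62e-05 to 0.999 over the 12 alternatives.

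The β subunit gene *Gnb3* was by far the most abundant of the 7. Its counts reached 18186 (WT 1) and 20275 (WT 2), against 6421 and 7662 in the *Sirt6*-/- libraries. Each *Sirt6*-/- library was below either WT library, and the libraries of a group lay close together. The mean level was 298 ± 28.8 CPM in WT and 113 ± 9.24 CPM in *Sirt6*-/- (SD, n = 2 each). The difference was 2.64-fold, a log2 fold change of -1.40 ± 0.18 (SE; 95% interval -1.85 to -0.95), unadjusted p = 0.000395 by edgeR. Benjamini-Hochberg adjustment gave 0.366 by edgeR's quasi-likelihood test and 3.02e-07 by DESeq2, with a range of 3.02e-07 to 0.999 over the alternatives.

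The γ subunit gene *Gng13*, whose product anchors the βγ dimer, was close to the detection limit. It had 5 counts in WT 1, 18 in WT 2 and 0 in both *Sirt6*-/- libraries, and did not pass the filter. A count of 0 allows up to 3 counts, which is 0.0497 CPM in *Sirt6*-/- 1 and 0.0468 CPM in *Sirt6*-/- 2 by counting error alone. Set against 3 counts per library, the WT mean was 3.72-fold higher, but WT 1 alone was 1.58-fold higher, so the value rests on WT 2. With this few reads, and with *Chtf18* on the other strand, no difference between the groups was established for *Gng13*.

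Downstream of the βγ dimer, *Plcb2* differed least. Its counts were 3017 in WT 1, 3112 in WT 2, 1921 in *Sirt6*-/- 1 and 1680 in *Sirt6*-/- 2. The groups did not overlap, but the distance between them was modest. Mean levels of 47.5 ± 1.99 CPM in WT and 29.0 ± 3.98 CPM in *Sirt6*-/- (SD, n = 2 each) gave a 1.64-fold difference. The log2 fold change was -0.71 ± 0.25 (SE; 95% interval -1.33 to -0.09) with an unadjusted p of 0.0319 by edgeR. Leaving out any 1 of the 4 libraries moved that p to between 0.0592 and 0.133. Adjusted by the Benjamini-Hochberg method, p was 0.548 by edgeR's quasi-likelihood test and 0.217 by DESeq2, between 0.217 and 0.999 over the alternatives.

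*Itpr3*, the channel that releases calcium from the endoplasmic reticulum, went the other way. It had 1775 counts in WT 1 and 1275 in WT 2, against 3228 in *Sirt6*-/- 1 and 2539 in *Sirt6*-/- 2. Both *Sirt6*-/- libraries were higher, with a wide spread inside each group. Its mean level was 23.6 ± 5.01 CPM in WT and 46.5 ± 9.83 CPM in *Sirt6*-/- (SD, n = 2 each). The difference was 1.97-fold, on the log2 scale 0.98 ± 0.30 (SE; 95% interval 0.22 to 1.74), unadjusted p = 0.0205 by edgeR. It no longer passed without WT 2 (0.78, unadjusted p = 0.0853) or without *Sirt6*-/- 1 (0.75, unadjusted p = 0.118). The Benjamini-Hochberg adjusted p was 0.541 by edgeR's quasi-likelihood test and 0.134 by DESeq2, with 0.134 to 0.999 over the alternatives.

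*Trpm5*, the calcium-activated cation channel at the end of the cascade, reached 4365 counts in WT 1 and 5666 in WT 2, against 2660 in *Sirt6*-/- 1 and 2193 in *Sirt6*-/- 2. The highest *Sirt6*-/- library stayed below the lowest WT library. Its mean was 77.9 ± 15.8 CPM in WT and 39.1 ± 6.99 CPM in *Sirt6*-/- (SD, n = 2 each), 1.99-fold lower. The log2 fold change was -0.99 ± 0.27 (SE; 95% interval -1.67 to -0.31), unadjusted p = 0.0126 by edgeR. Without WT 2 the value was -0.77 (unadjusted p = 0.0623 by edgeR) and without *Sirt6*-/- 2 it was -0.85 (unadjusted p = 0.0608). The Benjamini-Hochberg adjusted p was 0.541 by edgeR's quasi-likelihood test and 0.0559 by DESeq2, from 0.0559 to 0.999 over the alternatives.

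The regulator *Rgs13* had the next largest difference after *Gnat3*. Counts were 2666 and 2947 in the WT libraries and 530 and 711 in the *Sirt6*-/- libraries. Both *Sirt6*-/- values were well below either WT value. Its mean level was 43.5 ± 3.95 CPM in WT and 9.93 ± 1.63 CPM in *Sirt6*-/- (SD, n = 2 each). It was 4.38-fold lower, with a log2 fold change of -2.13 ± 0.29 (SE; 95% interval -2.86 to -1.41) and an unadjusted p of 0.00051 by edgeR. By edgeR's quasi-likelihood test with Benjamini-Hochberg adjustment p was 0.378, by DESeq2 4.83e-08, and over the alternatives 4.83e-08 to 0.999.

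**Figure D2:**
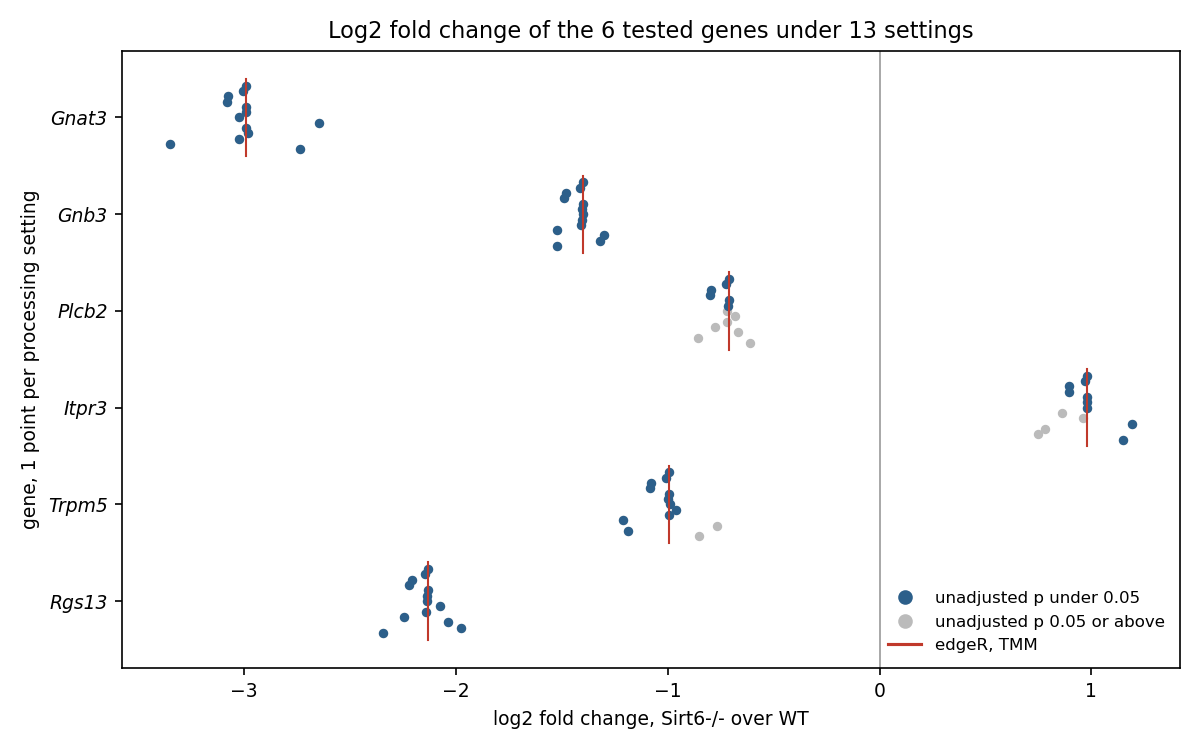
Log2 fold change (*Sirt6*-/- over WT) of the 6 tested genes, with 1 point for each of 13 processing settings, blue where the unadjusted p was under 0.05 and grey otherwise, and a red line at the edgeR value with TMM scaling. *Gnat3*, *Gnb3* and *Rgs13* are blue under every setting, whereas *Plcb2*, *Itpr3* and *Trpm5* have grey points, and no gene crosses 0.

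Levels of different genes are compared in TPM, which is scaled per transcript length. In WT, *Gnb3* was highest with 356 ± 41.5 TPM (SD, n = 2), followed by *Rgs13* with 64.0 ± 7.09 TPM, *Trpm5* with 39.1 ± 8.71 TPM and *Gnat3* with 22.6 ± 0.313 TPM. *Plcb2* came next with 20.3 ± 1.26 TPM, then *Itpr3* with 5.75 ± 1.11 TPM. Neighbours in this order did not overlap between libraries. In *Sirt6*-/-, *Gnb3* was still highest with 134 ± 11.6 TPM, and *Trpm5* (19.5 ± 3.39), *Rgs13* (14.5 ± 2.45), *Plcb2* (12.3 ± 1.64), *Itpr3* (11.3 ± 2.34) and *Gnat3* (2.82 ± 0.866 TPM) followed. *Rgs13*, *Plcb2* and *Itpr3* could not be ordered there, since their libraries overlapped. *Gnb3* made up between 66.05% and 71.6% of the summed TPM of the 7 genes in all 4 libraries, while that sum went from 467 and 549 TPM in WT to 190 and 198 TPM in *Sirt6*-/-.

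Ratios between genes within a library are given as a description, without a test. The TPM of *Gnat3* was 0.0699 and 0.0581 of that of *Gnb3* in the WT libraries, and 0.0274 and 0.0156 in the *Sirt6*-/- libraries. *Rgs13* was 0.181 and 0.179 of *Gnb3* in WT and 0.102 and 0.114 in *Sirt6*-/-. Both ratios were lower in each *Sirt6*-/- library than in each WT library. *Plcb2* was 0.0595 and 0.0551 of *Gnb3* in WT and 0.107 and 0.0787 in *Sirt6*-/-, so that ratio was higher. *Itpr3* was 0.337 and 0.234 of *Plcb2* in WT and 0.962 and 0.865 in *Sirt6*-/-.

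Each gene was then set beside the other genes of its family. Gα subunits carry the signal specificity of G proteins, and of 16 tested 1 was lower (*Gnat3*) and 1 higher at an unadjusted p of 0.05 by edgeR, with a median log2 fold change of -0.01. Unadjusted, DESeq2 called 2 lower and 1 higher. The higher gene was *Gnal*, the olfactory Gα, with counts of 344 and 194 in WT against 591 and 664 in *Sirt6*-/- (1.28 ± 0.44 SE). *Gnai3*, an inhibitory Gα and the most abundant by TPM, had 277 ± 10.7 TPM in WT and 297 ± 40.1 TPM in *Sirt6*-/- (SD, n = 2 each), a log2 fold change of 0.11 ± 0.17.

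Of 5 Gβ genes, *Gnb3* was the 1 that was lower. *Gnb4*, at 381 ± 40.4 TPM in WT, was about as abundant as *Gnb3* there, and had 400 ± 99.7 TPM in *Sirt6*-/- (SD, n = 2 each), with a log2 fold change of 0.08 ± 0.22. *Gnb1*, also used in taste cells, counted 6420 and 5953 in WT against 3460 and 4890 in *Sirt6*-/- (-0.52 ± 0.23, unadjusted p = 0.0692 by edgeR and 0.0483 by DESeq2). Its groups did not overlap either. The TPM of *Gnb3* was 4.80 and 5.77 times that of *Gnb1* in WT and 3.13 and 2.64 times in *Sirt6*-/-. Among 9 tested Gγ genes of 12 listed, 0 were lower and 0 higher by the unadjusted p of either edgeR or DESeq2, and *Gng12*, the most abundant, had a log2 fold change of -0.28 ± 0.20.

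In the phospholipase C family 1 of 13 genes was lower (*Plcb2*) and 1 higher by edgeR, with a median of 0.10. Unadjusted, DESeq2 called 1 lower and 2 higher. The higher one by edgeR was *Plcz1*, the sperm phospholipase that triggers calcium waves in the egg. It had counts of 502 and 645 in WT against 1362 and 1893 in *Sirt6*-/- (1.55 ± 0.33, unadjusted p = 0.00457 by edgeR). *Plcb4*, the most abundant, had a log2 fold change of 0.11 ± 0.20. Of the 3 IP3 receptors, *Itpr3* was the 1 that was higher by the same rule, with a median of 0.79. *Itpr2*, the most abundant, gave 0.04 ± 0.22. *Itpr1* did not pass (0.79 ± 0.34, unadjusted p = 0.0653 by edgeR). It counted 975 and 900 in WT against 1861 and 1238 in *Sirt6*-/-, also without overlap between the groups. *Itpr3* was 0.305 and 0.215 of *Itpr2* by TPM in WT, and 0.504 and 0.486 in *Sirt6*-/-.

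*Trpm5* was the most abundant of the 8 TRPM channels by TPM in WT. Of 7 tested, 2 were lower (*Trpm5* and *Trpm6*) and 1 higher (*Trpm7*). *Trpm6*, a magnesium channel, counted 531 and 632 in WT against 76 and 275 in *Sirt6*-/- (-1.70 ± 0.67). *Trpm7*, its widely expressed relative, counted 1851 and 1787 in WT against 4739 and 2829 in *Sirt6*-/- (1.12 ± 0.34). The family members therefore differed in direction.

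Of 20 RGS genes tested, *Rgs13* was the 1 that was lower and 3 were higher, with a median of -0.14. *Rgs16*, another GTPase-activating protein, counted 10171 and 9230 in WT against 18628 and 18522 in *Sirt6*-/- (0.99 ± 0.16, unadjusted p = 0.00134 by edgeR). *Rgs3* (0.52 ± 0.20) and *Rgs12* (0.67 ± 0.26) were the other higher genes. *Rgs5*, the most abundant of the family, counted 43656 and 44078 in WT against 38384 and 43912 in *Sirt6*-/-, a log2 fold change of -0.04 ± 0.14.

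**Figure D3:**
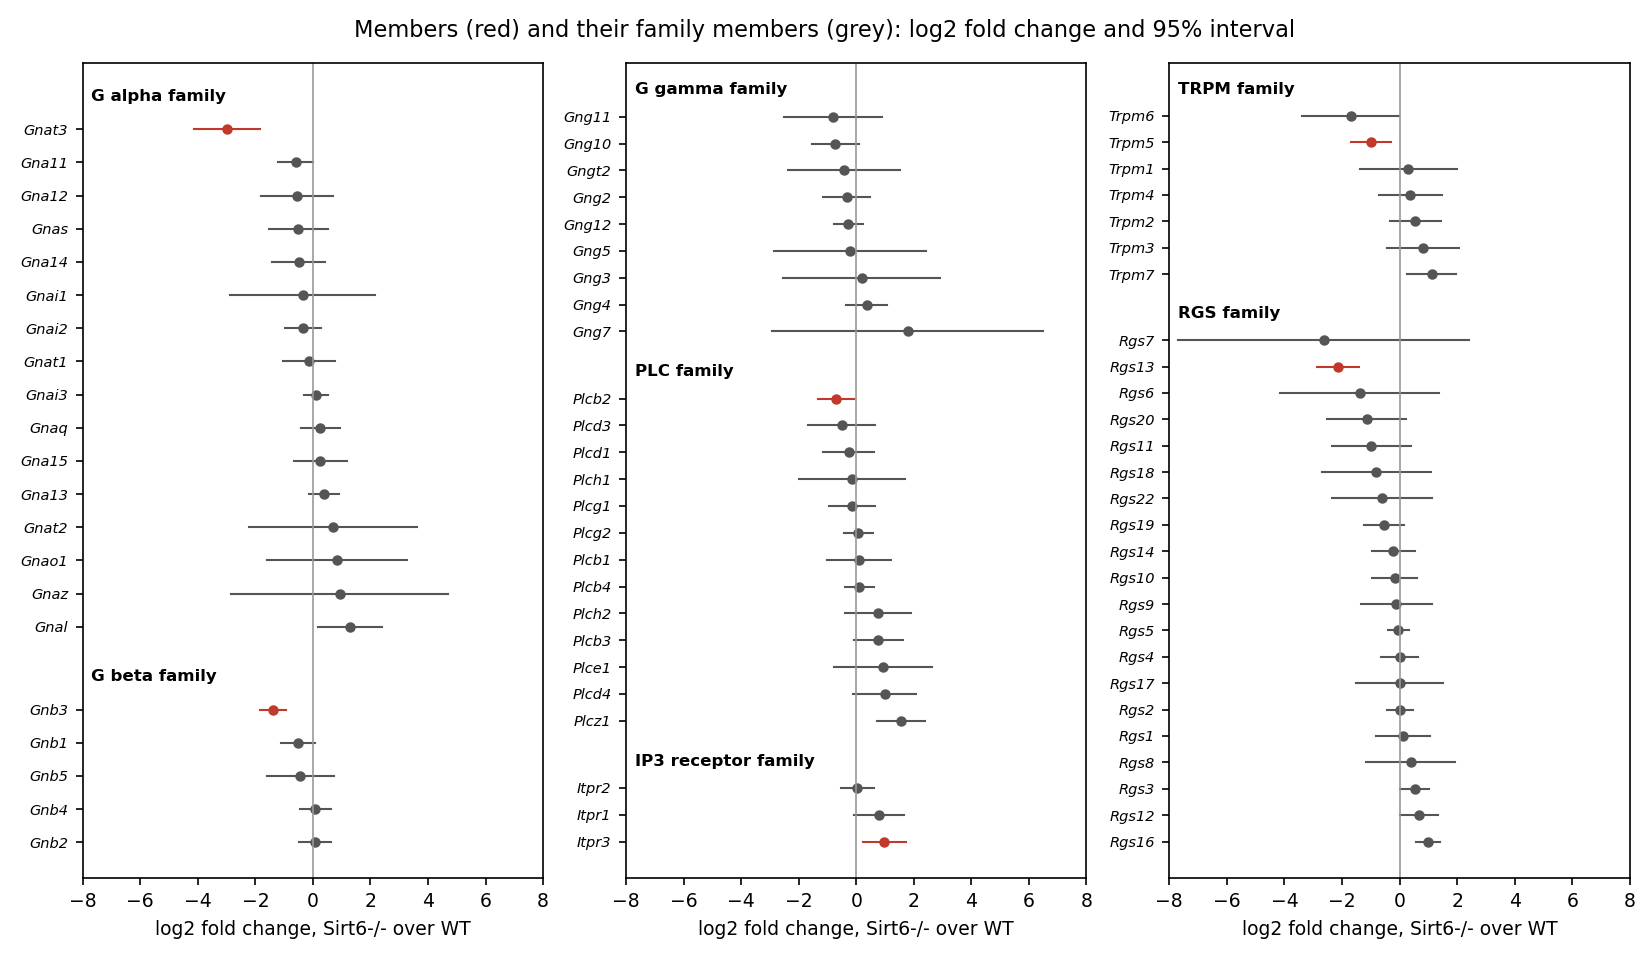
Log2 fold change (*Sirt6*-/- over WT) with its 95% interval for the tested genes of the 7 families, with the taste transduction genes in red and their relatives in grey. *Gnat3* (-2.99), *Gnb3* (-1.40) and *Plcb2* (-0.71) have the lowest values of their families, and *Itpr3* (0.98) has the highest of the IP3 receptors.

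**Figure D4:**
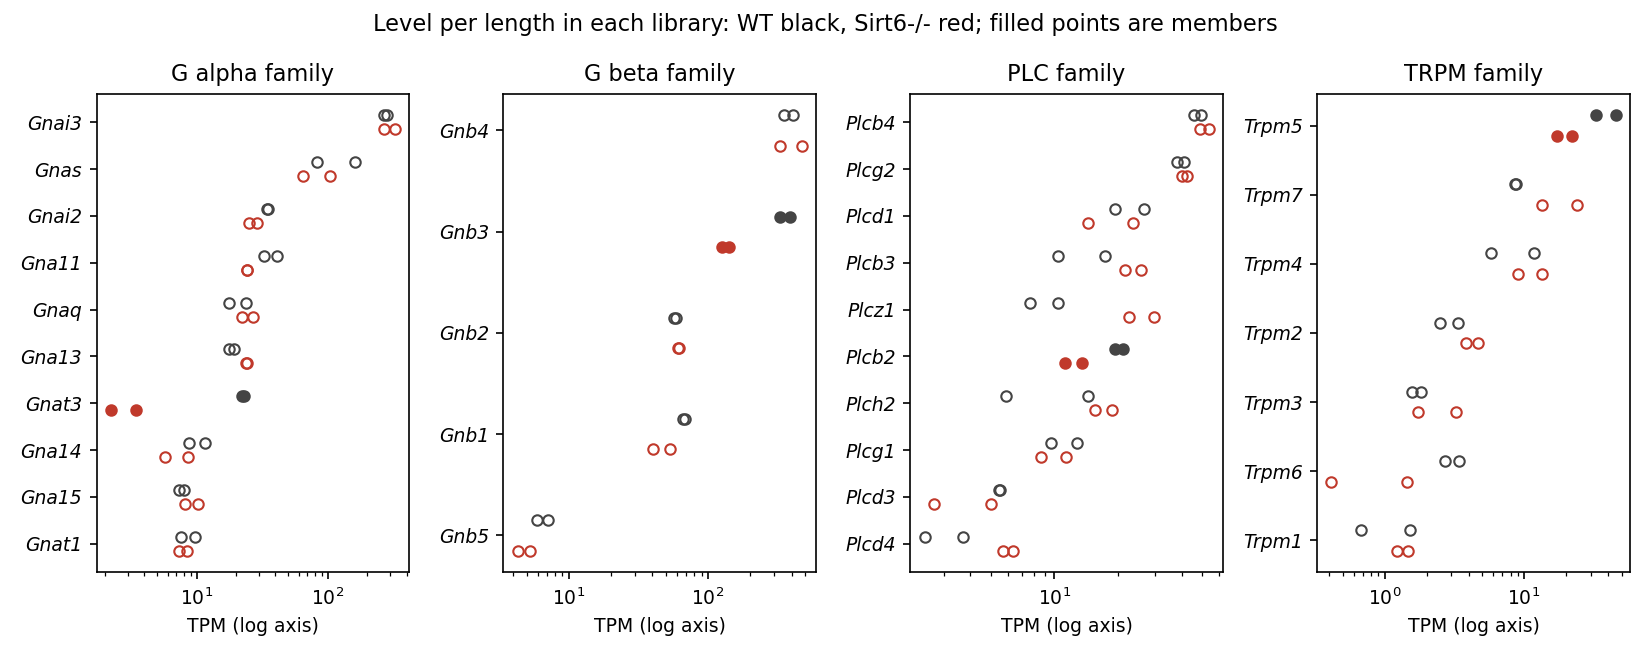
TPM on a log axis in each library, WT in black and *Sirt6*-/- in red, for the up to 10 most abundant genes with TPM above 0 in all libraries in the Gα, Gβ, phospholipase C and TRPM families, with filled points for *Gnat3*, *Gnb3*, *Plcb2* and *Trpm5*. *Trpm5* leads its family in WT, and *Gnb3* (356 TPM) sits beside *Gnb4* (381 TPM) in WT and below it in *Sirt6*-/-.

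Other genes of taste signalling differed in direction. Of 25 tested from a list of 29, 2 were lower and 1 was higher at an unadjusted p of 0.05 by edgeR, with a median of -0.25. Unadjusted, DESeq2 called 3 lower and 1 higher. Adjusted, 0 passed by edgeR and 1 was lower by DESeq2, *Rtp4*. *Rtp4*, a chaperone that brings taste receptors to the membrane, counted 5321 and 4660 in WT against 2360 and 2610 in *Sirt6*-/- (-0.95 ± 0.22, unadjusted p = 0.00572 by edgeR). *Lrmp*, which binds the IP3 receptor in taste cells, counted 14925 and 11849 in WT against 8077 and 5952 in *Sirt6*-/- (-0.87 ± 0.25, unadjusted p = 0.015 by edgeR).

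The higher gene was *Pde1c*, a calcium-dependent phosphodiesterase, with counts of 3994 and 3743 in WT against 5665 and 7390 in *Sirt6*-/- (0.80 ± 0.21, unadjusted p = 0.0113 by edgeR). Among the more abundant genes that did not pass were the calcium pump gene *Atp2a3* (0.31 ± 0.30), the calcium sensor gene *Stim1* (-0.11 ± 0.21) and *Plcg2* (0.07 ± 0.20). In a list of 12 genes of sour and salt taste cells, which do not use this cascade, 1 was lower and 0 were higher by the unadjusted p of both edgeR and DESeq2, with a median of -0.28. The lower gene was *Ddc*, an enzyme of serotonin synthesis, with counts of 3229 and 4367 in WT against 1217 and 2405 in *Sirt6*-/- (-1.03 ± 0.38). *Pkd2l1* (-0.20 ± 0.34), *Snap25* (-0.40 ± 0.30), *Scnn1a* (0.63 ± 0.33) and *Entpd2* (0.75 ± 0.32) did not pass.

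Bitter taste receptors stand upstream of gustducin. Of 35 *Tas2r* genes listed, 22 were tested, of which 4 were lower and 2 higher at an unadjusted p of 0.05 by edgeR, with a median of -1.31, also when the 4 genes with a group at 0 were set at 3 counts per library. DESeq2 called 9 lower and 2 higher unadjusted, and 3 lower adjusted (*Tas2r104*, *Tas2r121* and *Tas2r138*), where edgeR called 0. Their summed level was 54.6 and 79.4 CPM in WT and 30.3 and 12.1 CPM in *Sirt6*-/-, so both *Sirt6*-/- libraries lay below both WT libraries. *Tas2r138* counted 649 and 417 in WT against 48 and 125 in *Sirt6*-/-, and *Tas2r105* had 532 and 421, then 138 and 35.

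*Tas2r104* (130 and 192 counts) and *Tas2r121* (151 and 368 counts) had counts in WT only. Against 3 counts per library in *Sirt6*-/-, they were at least 41.2-fold and 47.8-fold lower by the lower of the WT libraries. *Tas2r107* (86 and 16) and *Tas2r124* (61 and 31) had counts in *Sirt6*-/- only, at least 5.37-fold and 10.4-fold higher by the lower of those libraries. *Tas2r108*, the most abundant, counted 1019 and 1274 in WT against 596 and 210 in *Sirt6*-/- (-1.44 ± 0.58, unadjusted p = 0.0528 by edgeR). *Tas2r118* (-1.36 ± 1.01), *Tas2r129* (-3.03 ± 1.32) and *Tas2r137* (-0.62 ± 0.79) did not pass.

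Tuft cell markers were counted next, a list that shares *Lrmp* with the list of other taste signalling genes. Of 24 tested, 18 had a log2 fold change below 0 and 6 above 0. Of the 24, 11 were lower and 1 was higher at an unadjusted p of 0.05 by edgeR, with a median of -0.72. Adjusted, 0 passed by edgeR, whereas DESeq2 called 4 lower and 1 higher. Among the 6 most abundant, *Avil* (-1.06 ± 0.19), a regulator of actin in the apical tuft, *Alox5ap* (-1.15 ± 0.43), needed for leukotriene synthesis, *Espn* (-1.29 ± 0.51), which bundles actin, and *Lrmp* were lower. *Vav1*, a guanine nucleotide exchange factor, did not pass (-0.49 ± 0.25, unadjusted p = 0.105 by edgeR).

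*Spib*, an Ets factor that tuft cells share with other mTECs and with B cells, was higher, with counts of 33907 and 32819 in WT against 67018 and 74018 in *Sirt6*-/- (1.13 ± 0.14). Of the 12 markers that did not pass, 3 widely used ones are given here, chosen after their values were seen and not representative of the list: *Pou2f3* (0.24 ± 0.24, unadjusted p = 0.359 by edgeR), *Gfi1b* (0.55 ± 0.42, unadjusted p = 0.242 by edgeR) and *Dclk1* (0.36 ± 0.34, unadjusted p = 0.338 by edgeR). *Pou2f3*, the master regulator of tuft cells, counted 2512 and 2810 in WT against 3196 and 2866 in *Sirt6*-/-.

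**Figure D5:**
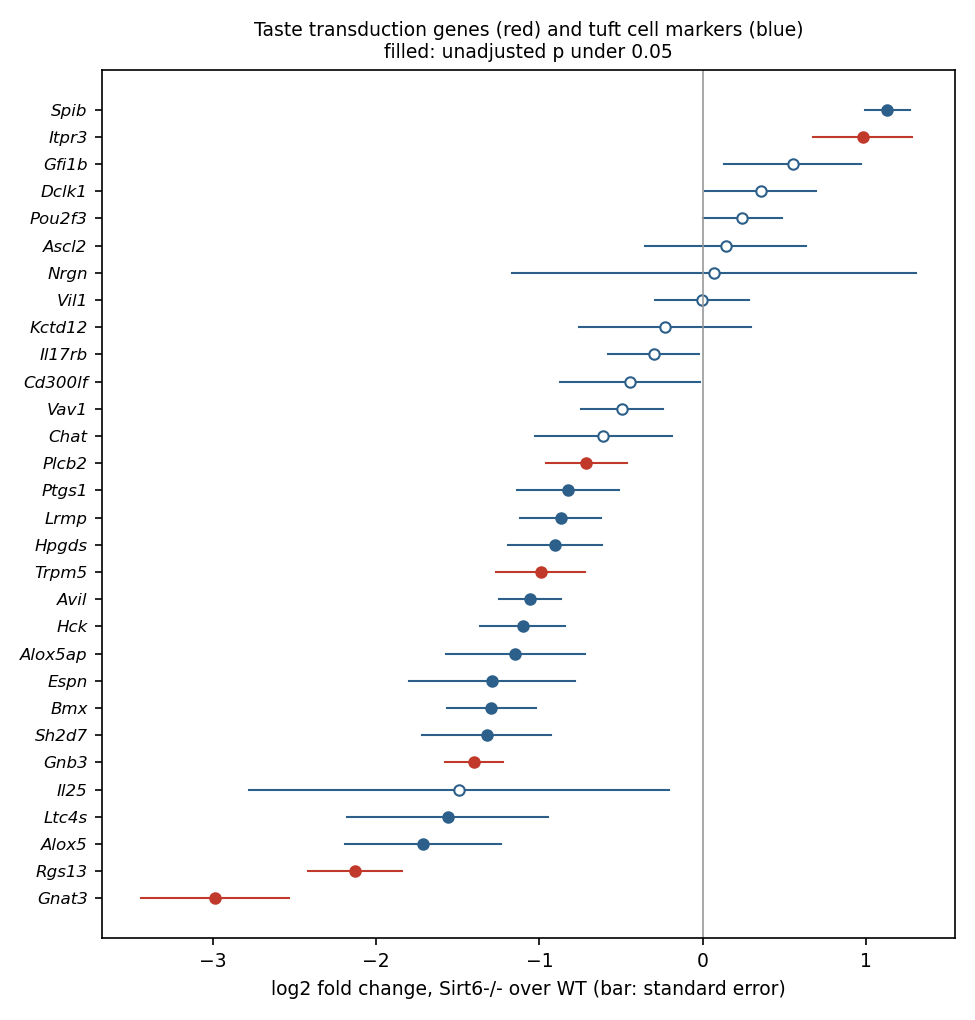
Log2 fold change (*Sirt6*-/- over WT) with its standard error for the 6 tested cascade genes in red and 24 tuft cell markers in blue, filled where the unadjusted p was under 0.05. *Gnat3* and *Rgs13* have the lowest values, and *Spib* and *Itpr3* the highest. Of the 24 markers, 18 lie below 0 and 6 above 0. *Pou2f3*, *Gfi1b* and *Dclk1*, picked after their values were seen, are open points above 0.

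Several of the 7 genes are also used by other cells of the thymus. The CD45- EPCAM+ gate is meant to remove blood cells, but each of their marker lists had counts in all 4 libraries. *Pax5*, a factor that defines B cells, was at 0 in WT 1 and *Sirt6*-/- 2 and had 11 counts in WT 2 and 12 in *Sirt6*-/- 1. *Plcb2* is known in blood cells, *Rgs13* in B cells and mast cells, and *Itpr3* in many epithelia. The summed level of 10 macrophage and dendritic cell markers was 5072 and 3139 CPM in WT and 2038 and 2138 CPM in *Sirt6*-/-. Most of that sum was *Lyz2*, with 4647 and 2815 CPM in WT and 1778 and 1906 CPM in *Sirt6*-/-. Of the 10, 4 were lower, *Lyz2* (-1.02 ± 0.25), *Emr1* (-1.12 ± 0.40), *Cd68* (-1.25 ± 0.32) and *Mpeg1* (-0.65 ± 0.21). The other 6 did not pass. In the list 8 had a log2 fold change below 0 and 2 above 0, *Itgam* (0.57 ± 0.64) and *Fcer1g* (0.10 ± 0.45). These 4 markers were lower, as *Plcb2* was, and no marker of the list was at 0 in all libraries. The part of macrophages and dendritic cells in the difference of *Plcb2* was not tested. The summed level of 8 mast cell and basophil markers was 138 CPM in each WT library and 88.5 and 105 CPM in *Sirt6*-/-, with 1 of 8 lower (*Cpa3*, -0.83 ± 0.32). The 7 B cell markers summed to 231 and 189 CPM in WT and 220 and 181 CPM in *Sirt6*-/-, which overlapped, and 1 was higher (*Blk*, 0.87 ± 0.22), while *Cd79b* gave -0.07 ± 0.22. The part of mast cells and B cells in the difference of *Rgs13* was not tested.

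The other marker lists were counted by the same unadjusted rule. Of 12 thymocyte markers 0 were lower and 0 higher by the unadjusted p of edgeR and DESeq2 alike, with a median of -0.42 and *Lck* at -0.57 ± 0.30. Of 12 mTEC markers 1 was lower and 3 were higher by edgeR, against 1 lower and 4 higher by DESeq2 unadjusted. *Ccl21a*, a chemokine of immature mTECs, was lower (-2.37 ± 0.46), and *Cd80* (0.94 ± 0.20), *Aire* (0.65 ± 0.18) and *Epcam* (0.48 ± 0.14) were higher, with *H2-Aa* at 0.09 ± 0.12.

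Of 8 cTEC markers 2 were higher, *Dll4* (1.08 ± 0.32) and *Ly75* (1.14 ± 0.36). The other 6 had a log2 fold change below 0, *Ctsl* among them (-0.35 ± 0.17), and the median of the list was -0.18. Of 8 neuroendocrine markers 1 was lower (*Scg2*, -1.89 ± 0.46). In that list 7 had a log2 fold change below 0, and the median was -0.77. *Chga* was the 1 above 0 (0.14 ± 0.18). Of 6 ionocyte and ciliated cell markers tested 1 was higher by edgeR (*Foxj1*, 1.98 ± 0.72), and DESeq2 called 1 lower and 1 higher of 7 listed. Of 8 fibroblast and endothelial markers 0 were lower and 0 higher by either tool (*Dcn*, -0.17 ± 0.18).

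The genes whose profile over the 4 libraries was most like the mean profile of the 6 tested genes were sought among 10272 genes outside the lists with a mean of at least 10 CPM. Likeness was the Euclidean distance between centred log2 CPM profiles. The mean profile took in *Itpr3*, which was higher in *Sirt6*-/- while the other 5 were lower, so it mixes both directions. The 5 nearest were *Mir17hg* (distance 0.053), *Scamp3* (0.127), *Itln1* (0.137), *Cd177* (0.145) and *Fxyd5* (0.155). *Mir17hg*, the host of a microRNA cluster, counted 1544 and 1585 in WT against 703 and 648 in *Sirt6*-/-, a log2 fold change of -1.16 ± 0.29. *Cd177*, a surface glycoprotein of neutrophils, counted 13742 and 12731 in WT against 6197 and 5176 in *Sirt6*-/- (-1.16 ± 0.20). With 4 points, such a distance mainly picks genes with a similar difference between the groups.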

How the data were processed

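mTEC libraries of WT (n = 2) and *Sirt6*-/- (n = 2) mice were analysed. The authors ran Trim Galore, then HISAT2 2.1.0 against mm10, and StringTie 1.3.3 for quantification, versions per the submitters' processing notes. For differential expression they used DESeq2 on the counts, which is an alternative here. The deposited counts were raw whole numbers, and the authors' deposited TPM values were from StringTie, another scale than counts, with the last line of each file (the column total, naming no gene) left out. The annotation and strand setting are not given in the sources used here, and a wrong strand assumption would mix overlapping genes.

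Counts were tested with edgeR 4.0.16 (TMM, filterByExpr at 10 counts and a total of 15, glmQLFit and glmQLFTest, two-sided) in R 4.3.3, with Benjamini-Hochberg adjustment over 18547 genes at 0.05. The biological coefficient of variation was 0.557. DESeq2 1.42.0 and limma 3.58.1 on log2(TPM + 1) and log2(TPM + 0.1) were alternatives, with other scalings, filters, a replicate block and each library left out. The code was tested on simulated data. Of 69 genes changed 2-fold there, 0 passed at an adjusted p of 0.05 by edgeR and 16 by DESeq2. Of 60 changed 4-fold 27 and 43 passed, and of 71 changed 8-fold 51 and 66. Standard errors follow each log2 fold change, counts of 0 were set to 3 counts per library for bounds, and these cover counting error only. Depth was 61102704 to 65907745 counts per library.

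Gene positions came from GENCODE on GRCm38 and promoter windows from RefSeq on GRCm38.p6. The genes and lists were chosen with earlier results of these data known. Genes named were the 7 genes; in each family, the other cascade genes, the sour and salt genes and the taste receptors, those at an unadjusted p of 0.05 and the most abundant by TPM (1 per family, up to 4 per other list); the 6 most abundant tuft markers; per other marker list, the most abundant and those at an unadjusted p of 0.05; the 5 nearest profiles; and *Sirt6*. *Pou2f3*, *Gfi1b*, *Dclk1*, *Pax5* and *Itpr1* fall outside this rule and were chosen after their values were seen. Python 3.11.15 with pandas 2.3.3 and matplotlib 3.10.9 was used for lists and plots.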

Additional observations from a re-analysis of the deposited data

How the results depend on the processing

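*Gnat3* (-3.35 to -2.64), *Gnb3* and *Rgs13* kept their direction and an unadjusted p under 0.05 in all 12 alternatives, and no value of the 6 tested genes changed sign. Of 72 member values, 59 passed. The number of the genes lower at an adjusted p was 0 by edgeR and 3 by DESeq2, and across all genes 1 passed by edgeR and 357 by DESeq2. Unadjusted, 5 were lower, against 4 with the replicate block, 4 by limma with either pseudocount, and 3 to 4 with a library left out (3 without WT 2 and 3 without *Sirt6*-/- 2). The 1 higher gene became 0 by limma with either pseudocount and was 0 to 1 with a library left out (0 without WT 2 or *Sirt6*-/- 1). Over the other cascade genes, 1 to 3 were lower and 0 to 3 higher with a library left out.

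Leaving out a library gave -3.35 to -2.73 for *Gnat3*, -1.52 to -1.30 for *Gnb3*, -2.34 to -1.97 for *Rgs13*, -1.21 to -0.77 for *Trpm5*, -0.86 to -0.61 for *Plcb2* (none passing) and 0.75 to 1.19 for *Itpr3*. A lone library was assumed to vary like the other group. *Plcb2* did not pass by limma with a pseudocount of 1 (-0.68) or 0.1 (-0.72) or with the replicate block (-0.72), nor did *Itpr3* by limma (0.86 and 0.96). The labels do not say whether the numbers shared by WT and *Sirt6*-/- libraries pair them. The correlation between deviations of the same number was -0.0544, which cannot decide this with 2 libraries per group. The block gave 449 lower and 697 higher genes unadjusted, against 615 and 977 without it. Upper quartile scaling gave 800 lower and 751 higher, and library size alone 838 and 721, so the share of higher genes depends on scaling.

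Values near 0 changed sign in 14 cases, none with an unadjusted p under 0.05. With a library left out, *Gnai3* ran from -0.063 (without *Sirt6*-/- 2) to 0.24, *Gnb4* from -0.23 (without *Sirt6*-/- 2; -0.029 without WT 1) to 0.31, *Itpr2* from -0.16 (without *Sirt6*-/- 1; -0.017 without WT 1) to 0.19, *Rgs5* from -0.13 to 0.010 (without *Sirt6*-/- 1), *Atp2a3* from -0.0011 (without *Sirt6*-/- 1) to 0.66, *Plcg2* from -0.012 (without WT 2) to 0.13 and *Pkd2l1* from -0.51 to 0.16 (without WT 2). With library size alone *Gnb4* was -0.0098, *Itpr2* -0.048 and *Plcg2* -0.021, and with upper quartile scaling *Itpr2* was -0.043 and *Plcg2* -0.015. The cause was not tested. Of 788 values of the other named genes, 680 kept direction and side, 71 no longer passed and 23 newly passed. Low counts kept *Gng13* and some listed genes, several bitter receptors among them, out of the test.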
